A study of Mus musculus with 6 samples.

Results

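Astrocyte identity and reactivity genes were followed in the aging mouse cortex as a set of 10 named genes out of the 55421 in the files: Gfap, Vim, Aqp4, S100b, Slc1a2, Slc1a3, Glul, Gja1, Aldh1l1 and Sox9. They were chosen by name for their known roles in astrocytes, with earlier results of these data known. All 10 had reads in each library and entered the test. RNA sequencing was carried out on the cortex of 3 mice aged 6 months (mice 10, 11 and 17) and 3 mice aged 24 months (mice 2, 4 and 5), with 1 library per mouse. All were wild-type C57BL/6J males, an inbred laboratory strain, killed by cervical dislocation under isoflurane, and animals with visible tumors were not used. No transgene or drug treatment was involved, so the groups differed in age alone by their labels. The cortex was dissected, frozen and ground to powder, so each value covers the whole tissue, neurons and vessels included.

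Astrocytes are glial cells that clear glutamate from synapses, regulate water and potassium around vessels and form a network coupled by gap junctions. When the nervous system is injured, inflamed or aging they can become reactive, a state classically recognised by more intermediate filament protein, above all GFAP. In the healthy cortex many astrocytes hold little GFAP, so identity is usually read from other genes such as Aldh1l1, Slc1a2 and Sox9. In bulk tissue, fewer astrocytes and less RNA per astrocyte cannot be told apart.

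The libraries held 29495379 to 36494240 counts. Genes with at least 1 count numbered 33974 to 35651 at 6 months and 40208 to 43561 at 24 months, without overlap. TMM scaling factors, which correct library totals for composition, were 0.921 to 0.946 at 6 months and 1.04 to 1.10 at 24 months. The median log2 fold change (24 over 6 months) was 0.15 over the 32905 genes tested and -0.20 over the 9675 of them with a mean TPM of at least 10, called expressed genes here. TPM (a share of the library corrected for gene length) is used for levels, and CPM (a share of counts with TMM scaling and no length correction) for differences between ages. With library totals alone these medians were 0.33 and -0.01, so the scaling shifts every fold change, and values on library totals are given beside those whose sign or call it changes. Fold changes come from edgeR's quasi-likelihood test with Benjamini-Hochberg adjustment over all genes tested, and a gene is said to have risen or fallen when its adjusted p is below 10% FDR.

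Gfap rose in the old cortex and the other 9 genes did not pass the test. Its fitted level was 1.62-fold higher at 24 months, with a 95% interval from 1.17 to 2.24. Transporters, glutamine synthetase, connexin 43, S100b, Aldh1l1 and Sox9 all had intervals that included no change, and Aqp4 was the only gene whose fitted value was lower with an unadjusted p below 0.05. At 10% FDR 1 of the 10 genes was called, against 18.4% of all genes tested. By direction, 10.0% of all genes tested rose and 8.33% fell, while among expressed genes 26.2% were called, 0.992% rising and 25.2% falling. At 1% FDR 0 of the 10 genes and 0.0% of all genes passed. The likelihood ratio test of edgeR and the Wald test of DESeq2 also called 0 of the 10 at 1% FDR, where they called 5.18% and 0.836% of their genes. At an unadjusted p below 0.05 there were 2 of the 10, against 30.7% of all genes. The median log2 fold change of the 10 was -0.02, between the median of all genes and that of expressed genes.

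**Figure D1:**
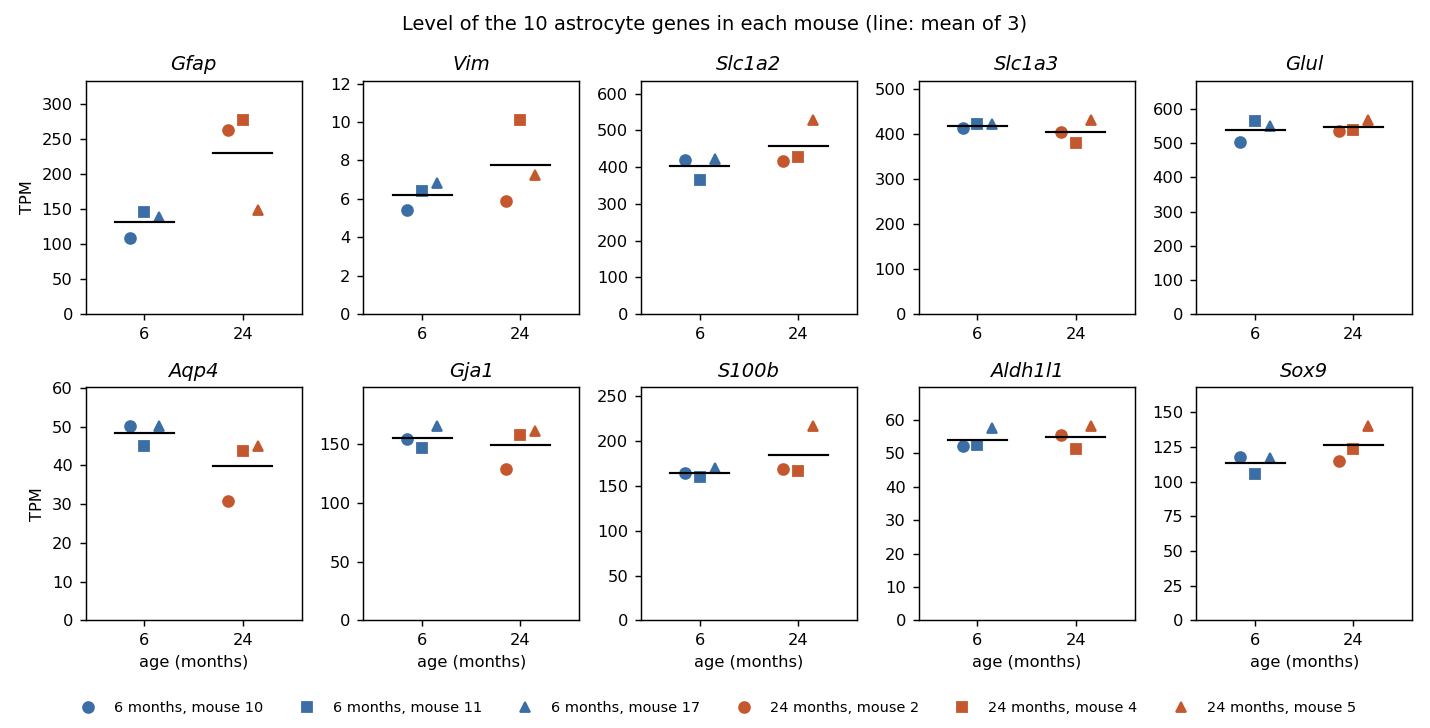
TPM of each of the 10 astrocyte genes in each mouse, on linear axes that start at 0, with 6-month mice in blue, 24-month mice in orange, a marker shape for each mouse and a line at the mean of 3 mice. Gfap in mice 2 and 4 lay at 262 and 277 TPM, while mouse 5 at 148 TPM lay just above the highest 6-month mouse at 146 TPM.

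The promoters of the 2 filament genes are shown first, since Gfap was the gene that rose and Vim, which shares its role, was not called. Both are RefSeq sequences of GRCm38.p6, from 250 bases before the annotated start to 20 after it, 5′ to 3′ on the gene's strand. The Gfap window is chr11:102897181-102897450 on the minus strand and the Vim window chr2:13574061-13574330 on the plus strand. Capitals mark matches to TTCNNNGAA, the letters bound by STAT factors, to TATAAA, the letters of the TATA box, or to CCAAT, those of the CCAAT box, on either strand. The AP-1 letters, TGANTCA, were searched as well and are in neither of these windows.
Gfap: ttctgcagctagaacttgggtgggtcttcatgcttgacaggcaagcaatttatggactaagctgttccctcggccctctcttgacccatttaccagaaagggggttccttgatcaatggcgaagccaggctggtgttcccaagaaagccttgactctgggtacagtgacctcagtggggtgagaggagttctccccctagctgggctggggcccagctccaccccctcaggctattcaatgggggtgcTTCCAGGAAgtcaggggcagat
Vim: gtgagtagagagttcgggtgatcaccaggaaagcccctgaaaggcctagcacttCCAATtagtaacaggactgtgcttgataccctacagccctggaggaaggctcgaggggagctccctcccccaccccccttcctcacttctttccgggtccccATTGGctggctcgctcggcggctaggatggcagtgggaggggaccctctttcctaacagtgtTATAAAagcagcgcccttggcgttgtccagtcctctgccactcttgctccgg
In the Gfap window the only capitals are a STAT match that lies across the start, from base -2 to base 7. Vim has a TATA match at -32 to -27 and CCAAT matches on both strands, and no STAT match in these letters. RefSeq places the Gfap start at base 102897200, inside the GENCODE gene, whose first base is 102900912.

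RefSeq promoters of the same table, each 300 bases long, were matched for 8 of the 10 genes, all but Aqp4 and Sox9. The STAT letters were in 2 of the 8, Gfap and Slc1a3, and in 8.30% of 32851 promoters. AP-1 letters were in 1, Gja1, against 7.81% of all promoters. CCAAT was in 5 (37.4% of all), TTGGC, letters of nuclear factor I sites, in 4 (46.7%), TATAAA in 2 (13.6%) and the SOX letters ACAAT in 1 (31.0%). CCAAT and TTGGC share letters where they meet on opposite strands, so the counts of these motifs are not independent. A match is a description of the letters and not a binding site.

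Of the intermediate filament genes, Gfap (ENSMUSG00000020932.14) encodes the astrocyte filament protein and lies on chr11:102887336-102900912 (GRCm38, minus strand) with 11 exonic blocks. It had 108, 146 and 139 TPM in mice 10, 11 and 17 at 6 months, and 262, 277 and 148 TPM in mice 2, 4 and 5 at 24 months. On TPM the ages did not overlap, but mouse 5 stood beside the young mice while mice 2 and 4 were far above them. On CPM the ages overlapped: 131, 174 and 166 at 6 months and 290, 307 and 164 at 24 months, with mouse 5 below mice 11 and 17. The means were 157 ± 23.1 and 254 ± 78.2 CPM (SD, n = 3 each).

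The log2 fold change of Gfap was 0.69 with a standard error of 0.21 (edgeR quasi-likelihood test, adjusted p = 0.0738). It was rank 70 from the top among the 9675 expressed genes, of which 96 rose. Whether Gfap passed 10% FDR depended on single mice. Without mouse 5 the adjusted p was 0.0289 and the log2 fold change 0.93. Leaving out any other mouse ended the call (edgeR quasi-likelihood test). The adjusted p was 0.191 without mouse 10, 0.158 without mouse 11, 0.121 without mouse 17, 0.172 without mouse 2 and 0.224 without mouse 4. The fitted direction was higher at 24 months in each of these fits. Over all genes, 0 were called without mouse 10 or 4, 1 without mouse 11 and 176 without mouse 2. The number was 2476 without mouse 17, and 6041 with all mice. The adjusted p of Gfap thus moved with the other genes too. Without mouse 11 its unadjusted p was 0.00621, beside 0.00824 with all mice (edgeR quasi-likelihood test). The calls in the wider lists given further on were as sensitive: 14 list genes were called with all mice, 0 without mouse 10, 11, 2 or 4, 7 without mouse 17 and 30 without mouse 5. No called gene named in the text, marker genes included, was called without mouse 10, 11, 2 or 4.

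Vim encodes vimentin, a filament protein that reactive astrocytes share with vessel wall and meningeal cells, and was by far the lowest of the 10. It had 5.42, 6.40 and 6.80 TPM at 6 months (mice 10, 11 and 17) and 5.89, 10.1 and 7.22 TPM at 24 months (mice 2, 4 and 5). The ages overlapped, and mouse 4 was highest. The log2 fold change was 0.21 ± 0.20 (SE; edgeR adjusted p = 0.498), with an interval from -0.23 to 0.64. Meningeal fibroblast markers (Dcn, Lum, Col1a1, Col1a2 and Slc47a1) summed to 16.06 to 35.96 TPM at 6 months and 15.6 to 42.08 TPM at 24 months, also highest in mouse 4. Their part in the Vim values was not tested. The 6 filament partners, a list with the cross-linker Plec and the co-polymer Synm, had 0 genes called. Their median log2 fold change was -0.09 (0.10 on library totals), and 1 of the 6 was below an unadjusted p of 0.05.

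**Figure D2:**
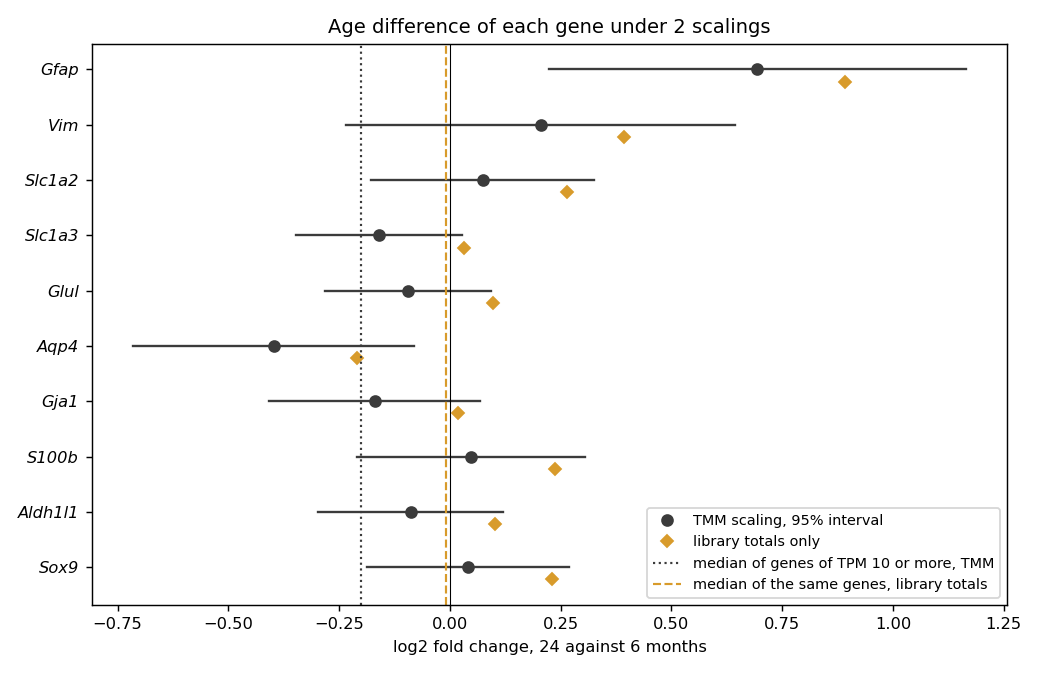
Fitted log2 fold change of each of the 10 genes (24 over 6 months) with its 95% interval, beside the value on library totals (diamonds), and vertical lines at the median of expressed genes under each scaling. The intervals of Gfap (0.22 to 1.16) and Aqp4 (-0.71 to -0.08) exclude 0 and those of the other 8 include it, while every diamond lies to the right of its circle.

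The glutamate clearance genes were among the highest in the cortex and were close between ages. Slc1a2 encodes GLT-1, the main glutamate transporter of forebrain astrocytes. It had 420, 366 and 422 TPM at 6 months and 418, 429 and 529 TPM at 24 months, and mouse 5 was above all others. Its log2 fold change was 0.07 with an interval from -0.18 to 0.33 (edgeR adjusted p = 0.680). Slc1a3 encodes GLAST, the second astrocyte glutamate transporter, and had 413, 422 and 422 TPM at 6 months and 405, 380 and 432 TPM at 24 months. Its ages overlapped on TPM. On CPM all old mice were lower, with 1009, 1017 and 1021 at 6 months and 908, 853 and 968 at 24 months. The log2 fold change was -0.16 with an interval from -0.35 to 0.03 (edgeR adjusted p = 0.221), and it was 0.03 on library totals. Glul encodes glutamine synthetase, which turns the glutamate taken up into glutamine. It was the highest of the 10, at 505, 565 and 550 TPM in young and 535, 539 and 569 TPM in old mice. The ages overlapped, and its log2 fold change was -0.09 with an interval from -0.28 to 0.09 (edgeR adjusted p = 0.466) and a value of 0.10 on library totals.

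Genes of glutamate and glutamine handling outside the 10 were read beside them. Of 12 such genes 5 fell and 0 rose at 10% FDR, and 10 had lower fitted values. For comparison, 10 of the 12 were expressed genes, of which 25.2% fell and 0.992% rose. On library totals 0 were called, 6 of the 12 had lower fitted values and the median was -0.06. With TMM scaling their median log2 fold change was -0.25, beside -0.20 for expressed genes. Got1 and Got2, the cytosolic and mitochondrial aspartate aminotransferases, fell by 0.38 and 0.33 on the log2 scale (edgeR adjusted p = 0.0552 and 0.0696). Got1 had 458, 447 and 421 CPM at 6 months and 314, 350 and 359 CPM at 24 months, without overlap. Slc1a1, the neuronal glutamate transporter EAAC1, fell by 0.42 (edgeR adjusted p = 0.0685). The other two, named after their values were seen, were the glutamine transporter Slc38a1 and the vesicular glutamate transporter Slc17a6. Of 8 neuron markers, all of them expressed genes, 8 had lower fitted values (6 of 8 on library totals) and 3 fell. For comparison, 8049 of the 9675 expressed genes had lower fitted values and 25.2% fell. The 8 markers summed to 5052 to 5709 TPM at 6 months and 4010 to 5069 TPM at 24 months. Syn1, a synaptic vesicle gene, fell by 0.50 on the log2 scale (edgeR adjusted p = 0.0518). The part of neurons in these values was not tested.

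The endfoot gene Aqp4 encodes the water channel of astrocyte endfeet on vessels. It had 50.1, 45.1 and 50.1 TPM at 6 months and 30.7, 43.7 and 45.0 TPM at 24 months. All old mice were below all young mice on TPM and on CPM, mouse 2 by a wide margin and the other two by a small one. The fitted level at 24 months was 0.759 of that at 6 months, a log2 fold change of -0.40 with an interval from -0.71 to -0.08. The unadjusted p was 0.0190 and the adjusted p 0.102 (edgeR quasi-likelihood test), so it did not pass 10% FDR. Without mouse 5 the gene passed, with an adjusted p of 0.0628, without mouse 2 its log2 fold change was -0.23, and on library totals it was -0.21 (edgeR adjusted p = 0.308). Of the 10 genes, 2 (Aqp4 and Slc1a3) had ages that did not overlap on CPM, beside 36.3% of all genes tested and 47.5% of expressed genes. Both had the old mice below, as did 16.2% of all genes and 45.7% of expressed genes, and 0 of the 10 had the old mice above, beside 20.0% and 1.86%.

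Of 9 genes of the complex that holds Aqp4 at the endfoot, 1 fell and 0 rose. All 9 were expressed genes, of which 25.2% fell and 0.992% rose. The median log2 fold change was -0.09 with TMM scaling and 0.10 on library totals. The gene that fell was Dag1, which encodes dystroglycan, the link to the basal lamina. It had 120, 132 and 119 CPM at 6 months and 79.4, 82.2 and 96.7 CPM at 24 months. The ages did not overlap, and the log2 fold change was -0.52 ± 0.10 (SE; edgeR adjusted p = 0.0518), a call that held on library totals (-0.33, edgeR adjusted p = 0.0765). Dtna and Dmd, which encode dystrobrevin and dystrophin, had log2 fold changes of -0.24 and -0.38 (edgeR adjusted p = 0.114 and 0.176). Endothelial markers summed to 78.2 to 96.1 TPM at 6 months and 65.1 to 110 TPM at 24 months, with 0 of 5 called, and were lowest in mouse 2, which also had the lowest Aqp4. Their part in the Aqp4 values was not tested.

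Gja1 encodes connexin 43, which couples astrocytes by gap junctions. It had 154, 147 and 165 TPM at 6 months and 129, 158 and 162 TPM at 24 months. The ages overlapped, with mouse 2 lowest, as for Aqp4. The log2 fold change was -0.17 with an interval from -0.41 to 0.07 (edgeR adjusted p = 0.301), and 0.02 on library totals. Of 7 connexins in a wider list 0 were called and 0 had an unadjusted p below 0.05. Their median log2 fold change was -0.05 with TMM scaling and 0.13 on library totals.

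S100b encodes a calcium-binding protein of astrocytes that some oligodendrocytes also make. It had 165, 160 and 170 TPM at 6 months and 169, 167 and 216 TPM at 24 months. Mouse 5 was high and the other two old mice lay within the young range, with a log2 fold change of 0.05 and an interval from -0.21 to 0.31 (edgeR adjusted p = 0.802). Oligodendrocyte markers, summed over 6 genes, were also highest in mouse 5: they reached 1357 to 2144 TPM at 6 months, and 800.3, 1898 and 2484 TPM in mice 2, 4 and 5. Of those 6 genes 0 were called, and their part in the S100b values was not tested. In the S100 family 1 of 9 genes fell, beside 8.33% of all genes tested and 25.2% of expressed genes. It was S100a10, at -0.37 on the log2 scale (edgeR adjusted p = 0.0932). It was not called on library totals, where 1 of the 9 rose and 0 fell.

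Aldh1l1 encodes a folate enzyme much used as a pan-astrocyte marker. It had 52.1, 52.6 and 57.5 TPM at 6 months and 55.4, 51.5 and 58.2 TPM at 24 months, which overlapped closely. Its log2 fold change was -0.09 with an interval from -0.30 to 0.12 (edgeR adjusted p = 0.543), and 0.10 on library totals. Sox9 encodes a transcription factor of the astrocyte lineage that stays on in adult astrocyte nuclei. It had 118, 106 and 117 TPM at 6 months and 115, 124 and 140 TPM at 24 months, again with mouse 5 highest. Its log2 fold change was 0.04 with an interval from -0.19 to 0.27 (edgeR adjusted p = 0.807).

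Among 12 further astrocyte transcription factors 1 rose and 1 fell. For comparison, 11 of the 12 were expressed genes, of which 0.992% rose and 25.2% fell. An unadjusted p below 0.05 was found for 5 of the 12, beside 30.7% of all genes tested. Sox2, known in neural progenitors and adult astrocytes, had 5.32, 4.60 and 5.01 CPM at 6 months and 8.29, 6.96 and 6.11 CPM at 24 months. All old mice were above all young mice, and the log2 fold change was 0.52 ± 0.16 (SE; edgeR adjusted p = 0.0744). Sox8, a relative of Sox9 that is also used in the oligodendrocyte lineage, had 31.4, 37.7 and 25.6 CPM at 6 months and 19.0, 16.5 and 20.6 CPM at 24 months. All old mice were below all young mice, and the log2 fold change was -0.76 ± 0.15 (SE; edgeR adjusted p = 0.0518). Of 3 oligodendrocyte precursor markers 1 fell, beside 8.33% of all genes tested. It was Gpr17, at -0.75 on the log2 scale (edgeR adjusted p = 0.0526). The other two, named after their values were seen, differed in sign and were not called: Pdgfra was at -0.21 and Cspg4 at 0.20 (edgeR adjusted p = 0.381 and 0.316). On library totals 1 of the 3 fell and 1 rose. Both Sox calls held on library totals, with edgeR adjusted p-values of 0.0558 for Sox2 and 0.0679 for Sox8. The part of that lineage in the Sox8 values was not tested. Stat3, which encodes a STAT factor, had 94.3, 97.0 and 95.2 CPM at 6 months. At 24 months it had 73.8, 77.3 and 88.0 CPM, all below the young mice. Its log2 fold change was -0.26 (edgeR adjusted p = 0.1075), so it was not called, and -0.07 on library totals. A link between STAT factors and the Gfap values was not tested.

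By level, summarised as the mean TPM over the 6 libraries, the order was Glul (544), Slc1a2 (430), Slc1a3 (412), Gfap (180), S100b (174), Gja1 (152), Sox9 (120), Aldh1l1 (54.5), Aqp4 (44.1) and Vim (6.97). The ranges over the 6 mice were apart for 4 of the 9 neighbouring pairs: Slc1a3 over Gfap, Sox9 over Aldh1l1, Aldh1l1 over Aqp4, and Aqp4 over Vim. The other 5 pairs overlapped. The place of Gfap moved with age: at 108 to 146 TPM it was below S100b in every young mouse, and in mice 2 and 4, but not in mouse 5, it was above S100b. Gfap made up 5.44, 7.25 and 6.62% of the summed TPM of the 10 genes in mice 10, 11 and 17, and 12.3, 12.7 and 6.42% in mice 2, 4 and 5. The other 9 genes summed to 1881, 1869 and 1959 TPM at 6 months and 1862, 1902 and 2157 TPM at 24 months.

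Gfap was also divided by each of the other 9 genes within the same library, which takes the scaling of libraries out of the comparison. The mean ratio at 24 months over that at 6 months was from 1.46 against Vim to 2.23 against Aqp4. Against Aqp4 the ratio of TPM values was 2.16, 3.23 and 2.77 at 6 months and 8.54, 6.33 and 3.29 at 24 months. The ages did not overlap for 2 of the 9 ratios, those to Aqp4 and Glul, and mouse 5 was near the young mice in both. In the other 7 ratios mouse 5 lay inside the young range.

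**Figure D3:**
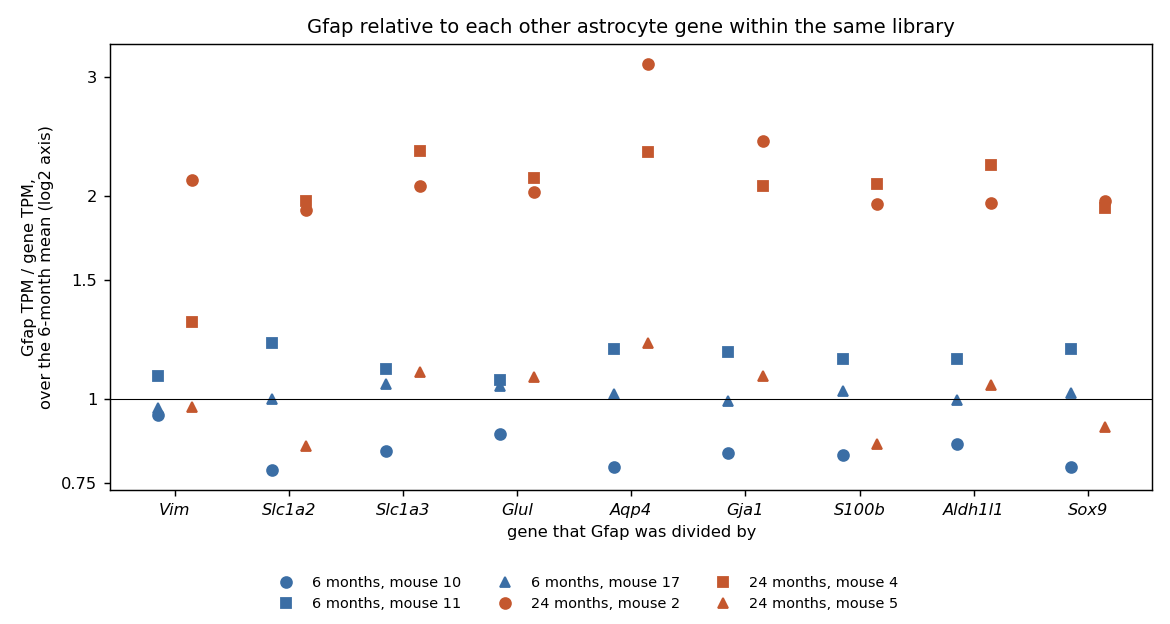
Gfap TPM divided by the TPM of each other astrocyte gene in the same library, over the mean of the 6-month mice, on a log2 axis, with a marker shape for each mouse. Mice 2 and 4 (orange circle and square) lie above all 6-month mice for every gene, and mouse 5 (orange triangle) lies among or just above them.

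Old mice were more spread than young mice for most of the set. The coefficient of variation of CPM (SD as a percentage of the mean, n = 3) was larger at 24 months for 9 of the 10 genes, with Glul the exception, and for 59.4% of expressed genes. Its median over the 10 was 6.21% at 6 months and 12.8% at 24 months, and over expressed genes 6.94% and 8.93%, given as a description with no test. On CPM, mouse 2 had the lowest value of 4 of the 10 genes and mouse 4 of 3, while mouse 5 and the 6-month mouse 17 each had the highest value of 3 and the lowest of 0.

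The other 8 genes of the set with mean TPM of at least 10 had a negative correlation with Gfap over the 6 libraries, which share age, depth and scaling. Pearson's r of log2 CPM with Gfap, as a description over 6 points, ran from -0.90 for Slc1a3 and -0.77 for Aqp4 to -0.42 for Slc1a2. Ranked from the most like Gfap among 9674 expressed genes, Slc1a2 was 3665, Sox9 3812, S100b 4442 and Glul 4692. Gja1 was 5829, Aldh1l1 5913, Aqp4 7011 and Slc1a3 9072. A negative r was thus common among expressed genes and not particular to this set. Of 9674 expressed genes compared, 25 had an r above 0.9. The 5 most like Gfap were Nudt13 (r = 0.99), Lzts2 (0.97), Ndn (0.96), Mllt6 (0.96) and Igkv4-55 (0.96). Ndn, which encodes the growth-suppressing protein necdin, rose by 0.45 on the log2 scale (edgeR adjusted p = 0.0666). It had 128, 156 and 134 TPM in young mice and 228, 222 and 168 TPM in old mice, with mouse 5 the lowest of the old. Igkv4-55, a variable segment of the immunoglobulin kappa light chain, had 0, 1 and 0 counts in young mice and 211, 251 and 6 counts in mice 2, 4 and 5. It counted as expressed only through mice 2 and 4. These genes were chosen for their likeness to Gfap, so a mouse pattern shared with it follows from the choice.

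Wider astrocyte lists were then read beside the 10 genes. Of 30 other astrocyte identity genes 2 fell and 0 rose. For comparison, 29 of the 30 were expressed genes, of which 25.2% fell and 0.992% rose. The median log2 fold change of the 30 was -0.08 with TMM scaling and 0.11 on library totals, where 3 rose and 0 fell. Clu, which encodes clusterin, a secreted chaperone, had 902, 929 and 930 CPM at 6 months and 723, 776 and 766 CPM at 24 months. The ages did not overlap, and the log2 fold change was -0.28 ± 0.08 (SE; edgeR adjusted p = 0.0644). Ppp1r3c, a glycogen-targeting phosphatase subunit, was at -0.37 (edgeR adjusted p = 0.0761). On library totals neither was called, with edgeR adjusted p-values of 0.434 and 0.338. Itih3 went the other way, with 27.7, 28.3 and 26.8 CPM at 6 months and 28.9, 34.1 and 37.1 CPM at 24 months. Its log2 fold change was 0.27 (edgeR adjusted p = 0.143), and on library totals it rose, at 0.46 (edgeR adjusted p = 0.0557).

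Genes known from reactive astrocytes of injured or inflamed mice were read next. Of 11 pan-reactive genes 0 rose and 2 fell, and on library totals 0 passed. For comparison, 10.0% of all genes tested rose and 8.33% fell. Only 2 of the 11 were expressed genes. The median log2 fold change was 0.01, or 0.19 on library totals. Those that fell were the small heat shock protein gene Hspb1, at 59, 54 and 44 counts in young and 23, 39 and 27 counts in old mice, and the sphingosine 1-phosphate receptor gene S1pr3. Their log2 fold changes were -0.87 and -0.49 (edgeR adjusted p = 0.0697 and 0.0739). Lcn2, which encodes lipocalin 2 and is among the strongest marks of acute reactivity, was near the detection limit with 1, 0 and 2 counts in young mice and 6, 6 and 2 in old mice.

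Of 11 genes called A1-type, the inflammatory form of reactivity, 1 rose and 0 fell, beside 10.0% and 8.33% of all genes tested. All 11 had higher fitted values. Higher fitted values were found for 19232 of the 32905 genes tested, but for only 1626 of the 9675 expressed genes. They were thus mostly those of low-level genes, and only 3 of the 11 A1-type genes were expressed genes. The median log2 fold change of the 11 was 0.29, and 0.48 on library totals, where all 11 were again higher and 2 rose. H2-D1, a class I histocompatibility gene used by many cell types, had 60.7, 74.8 and 76.6 CPM at 6 months and 84.8, 95.5 and 90.5 CPM at 24 months. All old mice were above all young mice, mouse 5 included, with a log2 fold change of 0.35 ± 0.11 (SE; edgeR adjusted p = 0.0786). Of 6 microglial markers 3 had higher and 3 lower fitted values. All 6 were expressed genes, of which 0.992% rose and 25.2% fell. Tmem119 rose, at 0.34 on the log2 scale, and Csf1r, named after its values were seen, fell, at -0.34 (edgeR adjusted p = 0.0683 and 0.0646). On library totals 1 of the 6 rose and 0 fell. The 6 markers summed to 563 to 572 TPM at 6 months and 602 to 640 TPM at 24 months. The part of microglia in the H2-D1 values was not tested. Of 12 A2-type genes, the form described after ischemia, 0 rose and 1 fell, beside 10.0% and 8.33% of all genes tested. The gene that fell was the S100a10 named above. Only 2 of the 12 were expressed genes. The median log2 fold change was 0.24 (0.43 on library totals, with 0 called). Over all 10 lists 14 of 113 different genes were called, or 12.4%, beside 18.4% of all genes tested and 26.2% of expressed genes.

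**Figure D4:**
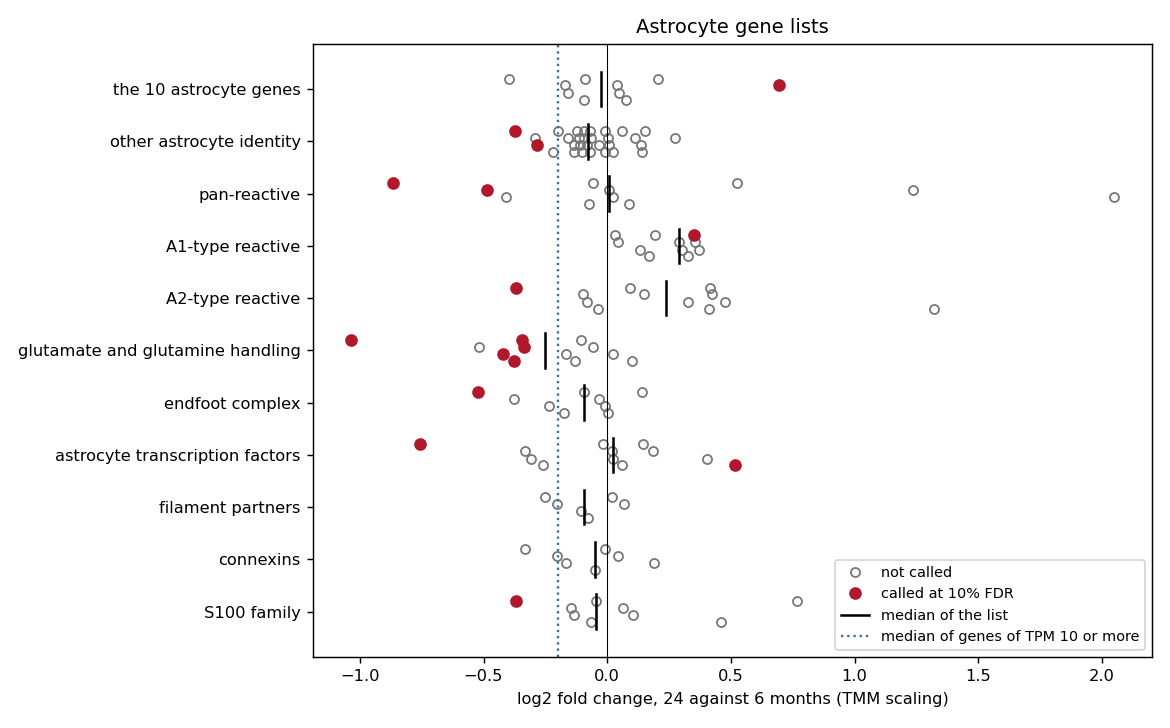
Log2 fold change (24 over 6 months) of every tested gene of each list, as 1 point per gene, with the list's median marked and filled points for genes called at 10% FDR. Of the 10 astrocyte genes Gfap alone is filled, and the A1-type list lies wholly above 0 while 5 glutamate genes that fell lie below it. Of the 11 A1-type genes 3 were expressed genes, and of the 12 glutamate genes 10.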

How the data were processed

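RNA was extracted from powdered cortex and libraries were made from 10 ng of total RNA with a kit that does not mark strand, so a gene and its antisense partner (Gm13872 for Slc1a2, Teddm2 for Glul) cannot be told apart by strand. Per the methods, the authors trimmed reads with Trim Galore 0.6.4, mapped them with STAR 2.7.3a to GRCm38 (GENCODE vM23) and counted them per gene with featureCounts (Subread 2.0.0). The stated counting options share reads that map to several places as fractions, while the deposited counts were whole numbers, so how such reads were counted is not clear. The counts were used as they are, and the deposited TPM values were computed by the authors from those counts and exonic length.

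Counts were tested here with the quasi-likelihood test of edgeR 4.0.16 (R 4.3.3), with TMM factors and no covariates. A gene entered with 10 or more counts summed across the 6 libraries, under Benjamini-Hochberg adjustment over all genes tested. 1% FDR is the level of the study, and 10% FDR was added. Alternatives were library totals, DESeq2 1.42.0 size factors and its Wald test, the likelihood ratio test, 2 other filters, limma 3.58.1 on log2(TPM + 1) and log2(TPM + 0.1), and each mouse left out in turn. "Called" means past 10% FDR. The 10 genes and all lists were chosen with earlier results of these data known. Named from each list were the 3 genes with the smallest unadjusted p, and from marker lists the highest gene and that with the largest change. No set test was made. A gene was left out of the wider lists and is not reported here. Positions are those of GENCODE vM21 on the same build, and promoters those of RefSeq. With 29495379 to 36494240 counts per library, genes of a few counts are given as counts.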

Additional observations from a re-analysis of the deposited data

How the results depend on the processing

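Of the 10 genes, 0 passed 1% FDR under every alternative run. At 10% FDR the number called was 2 with the likelihood ratio test (Aqp4 added), 0 with the filterByExpr filter, 0 with limma on log2(TPM + 1) and 0 with limma on log2(TPM + 0.1), and it ranged from 0 to 2 when 1 mouse was left out. Gfap kept its direction in all 14 alternatives, with a log2 fold change from 0.57 to 0.93 and adjusted p from 0.0289 to 0.224, and was not called in 8 of them. Aqp4 was from -0.49 to -0.21 with adjusted p from 0.0628 to 0.308, and was called in 2.

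Against 14 list genes called, the number was 9 with library totals (4 of the 14 and 5 others), 5 with filterByExpr (4 of the 14 and 1 other), 9 with no filter (all among the 14), 0 with limma on log2(TPM + 1), 4 with limma on log2(TPM + 0.1) (all among the 14), and from 0 to 30 with 1 mouse left out. Which mouse was left out also moved the count over all genes, from 0 of those tested without mouse 10 or mouse 4 to 7997 without mouse 5.

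Library totals moved the median of all genes from 0.15 to 0.33 and that of expressed genes from -0.20 to -0.01. The median of the 10 then moved from -0.02 to 0.17, and uncalled values changed sign in Slc1a3 (0.0317), Glul (0.0966), Gja1 (0.0192), Aldh1l1 (0.102), Plec (0.0835) and S100a6 (0.0501). Glul, Aldh1l1 and Plec also changed sign with filterByExpr (0.0196, 0.0253 and 0.00601), limma on log2(TPM + 1) (0.0205, 0.0241 and 0.00300) and limma on log2(TPM + 0.1) (0.0205, 0.0245 and 0.00295). With 1 mouse left out, values ranged from -0.126 to 0.00140 for Aldh1l1 (positive without mouse 4), from -0.598 to 0.2245 for the connexin gene Gjb2 (positive without mouse 17 or mouse 2), and, negative without mouse 5, from -0.0373 to 0.165 for Slc1a2, -0.0801 to 0.158 for S100b and -0.0358 to 0.115 for Sox9. The cause was not tested. No paired analysis was possible because the mouse numbers are not shared between the ages. With 3 mice per age an exact permutation test cannot go below p = 0.10, and genes of a few counts, such as Lcn2, are limited by depth.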
